A study of Mus musculus with 15 samples.

Results

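Nucleoside transporters and the enzymes and receptors of adenosine were followed in mouse hearts that had lost Acsl1, a long-chain acyl-CoA synthetase. The 9 genes Slc29a1, Slc29a2, Ada, Adk, Nt5e, Adora1, Adora2a, Adora2b and Adora3 were chosen by symbol, with earlier results of these arrays known. Of them 6, covered by 8 probes, were measured among the 19532 genes of the array table. Adora1, Adora2a and Adora2b were not analysed here. Because results were known when the genes were picked, their differences between groups are a description, and each adjusted p only places a gene among all 19532.

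The arrays came from ventricles of male mice (strain label C57Bl/J6 heart) given tamoxifen at 75 mg/kg for 4 days at 6 to 8 weeks of age. Acsl1H-/- (knockout) hearts were taken 2 weeks (n = 3) or 10 weeks (n = 4) after tamoxifen, and littermate Acsl1flox/flox hearts, here called flox controls, at 2 weeks (n = 4) or 10 weeks (n = 4). All groups had received tamoxifen. The labels do not name the promoter that drives the recombinase, and no group carried a recombinase without loss of Acsl1, so their effects cannot be told apart.

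Heart RNA (500 ng, Cy-5) was hybridised with a whole mouse reference RNA (Cy-3). Each deposited value is read here as a log2 heart-to-reference ratio, with every probe centred so that its median over the 15 arrays is 0. They compare arrays within a gene and carry no level, so genes cannot be ranked by abundance. The level of tissue markers could not be checked either, but arrays can be compared for them. The mean of 9 markers of atrium and conduction was 1.94, -0.002, 0.46 and -0.49 on the flox arrays of 2 weeks. In the other groups it ran from -0.09 to 0.28. Its part in the 2-week differences was not tested. The direction of the ratio is not stated. It follows the dyes in the labels and is likely; were it turned, all signs given here would turn with it. Acsl1 itself was not analysed here. Signal over background is not given in the table, so whether a probe lay above background is unknown and the number of arrays limits the precision.

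Adenosine is made outside the cell from AMP by the ectonucleotidase CD73 (Nt5e) and inside it from AMP or S-adenosylhomocysteine. The equilibrative transporters ENT1 (Slc29a1) and ENT2 (Slc29a2) let it cross the membrane down its gradient, and ENT2 also carries nucleobases such as hypoxanthine. Adenosine kinase (Adk) returns it to AMP and adenosine deaminase (Ada) turns it into inosine, while 4 G protein coupled receptors sense what stays outside. In heart, adenosine is known as a signal of energy shortage that widens coronary vessels and slows the beat.

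For the 3 genes with the largest differences at 10 weeks, the 250 bases before the RefSeq transcript start (GRCm38.p6) are shown, to set where RefSeq starts these genes beside their values. Slc29a2 lies at chr19:5023756-5024005 on the plus strand, Ada at chr2:163750240-163750489 on the minus strand and Nt5e at chr9:88327359-88327608 on the plus strand. Capitals mark the GC box GGGCGG on either strand.
Slc29a2: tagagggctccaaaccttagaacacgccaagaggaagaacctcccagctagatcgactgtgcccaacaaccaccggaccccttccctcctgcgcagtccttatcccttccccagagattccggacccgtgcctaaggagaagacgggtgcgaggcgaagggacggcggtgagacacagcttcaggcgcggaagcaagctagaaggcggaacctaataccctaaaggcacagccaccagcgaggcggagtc
Ada: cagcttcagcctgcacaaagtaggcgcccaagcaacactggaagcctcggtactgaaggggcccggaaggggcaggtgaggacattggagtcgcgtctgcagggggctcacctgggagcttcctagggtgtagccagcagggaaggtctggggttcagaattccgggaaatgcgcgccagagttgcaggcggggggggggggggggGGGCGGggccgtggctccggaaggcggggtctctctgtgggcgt
Nt5e: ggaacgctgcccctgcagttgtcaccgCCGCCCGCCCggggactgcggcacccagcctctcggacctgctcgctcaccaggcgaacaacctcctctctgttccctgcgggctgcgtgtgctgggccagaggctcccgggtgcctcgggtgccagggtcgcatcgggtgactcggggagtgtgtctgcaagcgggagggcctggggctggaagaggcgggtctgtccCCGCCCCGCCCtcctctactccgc

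The windows were 60.0% (Slc29a2), 67.2% (Ada) and 72.0% (Nt5e) G and C, against a median of 52.4% over 32851 such windows. Ada held 1 GC box, 44 to 39 bases before the start, and Nt5e held 4 in overlapping pairs, while Slc29a2 held none. That motif occurred in 32.7% of all windows. The hypoxia response core ACGTG (16.6% of windows), the cAMP response core TGACG (17.8%) and the ATF4 response core TGATGNAA (3.45%), each searched on both strands, matched in none of the 3 windows. These matches describe letters in a window and say nothing about whether a factor binds.

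At 10 weeks Ada lay higher and Slc29a2 lower in Acsl1H-/- hearts, and limma called both over all genes. Of the other measured genes none was called: Nt5e differed by -0.75 with its pair of probes unalike, and Slc29a1, Adk and Adora3 differed by at most 0.15 in size. Of the 19532 genes 0.686% were called at 10 weeks, 0.358% higher and 0.328% lower. The genes had been picked with this contrast known, so 2 called of 6 is not evidence about the system. At 2 weeks no gene of the system was called, where 0.00512% of all genes (1 gene) was.

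**Figure D1:**
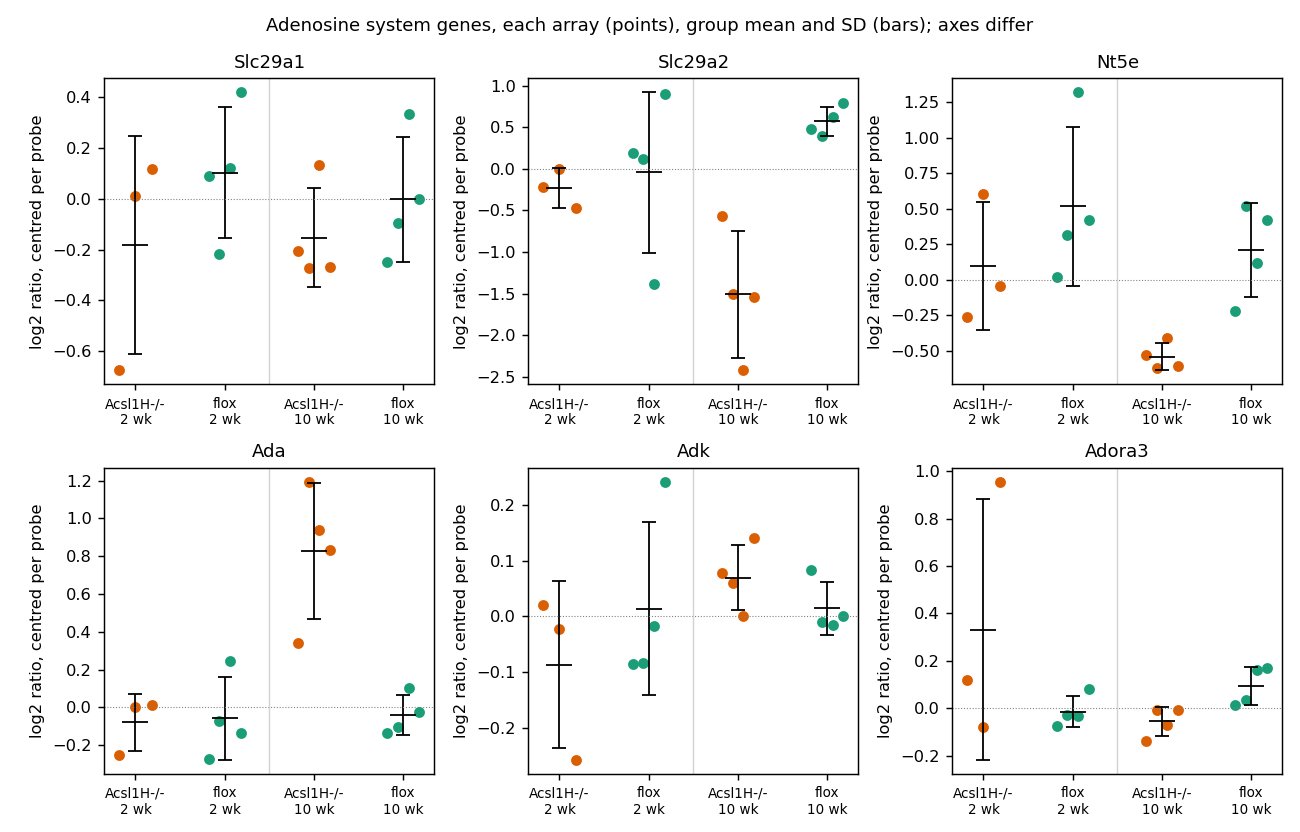
Centred log2 ratio of the 6 measured genes on each array (points) with the group mean and standard deviation (bars), Acsl1H-/- in orange and flox controls in green, at 2 and 10 weeks; the vertical scale differs between panels. At 10 weeks the 4 Acsl1H-/- arrays of Ada sit between 0.34 and 1.19, above all 4 controls, and those of Slc29a2 between -2.42 and -0.57, below all 4 controls.

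The transporter ENT2 showed the widest difference of the system. Slc29a2, measured by 1 probe, stood at -0.57, -1.51, -2.42 and -1.54 on the 4 Acsl1H-/- arrays of 10 weeks, against 0.48, 0.39, 0.62 and 0.79 on the flox arrays of 10 weeks. No Acsl1H-/- heart reached the lowest control, and the knockouts were spread over a range several times wider than the controls (SD 0.76 and 0.18). The difference was -2.08 ± 0.43 (log2, limma SE, adjusted p = 0.0476), a 4.23-fold lower ratio and the 6th largest drop of all genes. At 2 weeks Slc29a2 stood at -0.22, 0.00 and -0.47 in Acsl1H-/- hearts, against 0.19, 0.11, -1.39 and 0.90 in flox hearts. The groups overlapped there, because flox control 2 weeks replicate 3 lay below every knockout of that time. The difference at 2 weeks was -0.19 ± 0.46 (adjusted p = 0.951), with a 95% interval from -1.19 to 0.81.

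The limma call of Slc29a2 sat just under the threshold. It ended in 12 of the 15 fits that left out an array, with adjusted p of 0.0740, 0.0670 and 0.0638 when knockout hearts 1, 2 or 3 of 2 weeks were left out, and 0.0653 and 0.0681 when control hearts 1 or 2 of 2 weeks were. Leaving out knockout hearts 2, 3 or 4 of 10 weeks gave adjusted p of 0.104, 0.111 and 0.116. Leaving out control hearts 1, 2, 3 or 4 of 10 weeks gave 0.106, 0.0932, 0.102 and 0.134. In those 15 fits the log2 difference stayed between -2.39 and -1.78, and the adjusted p was lowest, 0.0126, without flox control 2 weeks replicate 3.

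ENT1, the other plasma membrane transporter of the family, gave no comparable separation. Slc29a1 stood at -0.20, -0.27, 0.13 and -0.27 in Acsl1H-/- hearts of 10 weeks, against -0.25, -0.09, 0.33 and 0.00 in flox hearts. At 2 weeks it stood at -0.68, 0.01 and 0.12 in Acsl1H-/- hearts and at 0.09, -0.22, 0.12 and 0.42 in flox hearts. The groups overlapped at both times, and 1 low heart, Acsl1H-/- 2 weeks replicate 1, set most of the spread of its group. Its log2 difference was -0.15 ± 0.19 at 10 weeks (limma, adjusted p = 0.892, 95% interval -0.57 to 0.27) and -0.29 ± 0.21 at 2 weeks (adjusted p = 0.793, 95% interval -0.74 to 0.16). Without that low heart the 2-week difference was -0.04, and the 10-week one was -0.25 when knockout heart 3 of 10 weeks was left out and -0.04 when control heart 3 was. The difference between the 2 transporters was not tested, since values of different probes are not set against each other here.

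Ada, which deaminates adenosine and deoxyadenosine, was the gene of the system that rose. Its 1 probe stood at 0.34, 1.19, 0.94 and 0.83 in Acsl1H-/- hearts of 10 weeks, against -0.13, -0.10, 0.10 and -0.02 in flox hearts of 10 weeks. All 4 knockouts lay above all 4 controls, and replicate 1 was the lowest of them, as it was the least changed for Slc29a2. At 2 weeks Ada stood at -0.25, 0.00 and 0.01 in Acsl1H-/- hearts and at -0.27, -0.07, 0.25 and -0.13 in flox hearts, so that the groups lay on top of each other. The log2 difference was 0.87 ± 0.17 at 10 weeks (limma, adjusted p = 0.0317, 1.82-fold) and -0.02 ± 0.18 at 2 weeks (adjusted p = 0.987, 95% interval -0.41 to 0.36). The difference between these effects was 0.89 ± 0.24 (adjusted p = 0.484, unadjusted p = 0.00296), which did not pass over all genes, where 0% of genes did.

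The call of Ada rested on all arrays of its contrast but 1. Its adjusted p was 0.0838, 0.0837 and 0.0816 when knockout hearts 2, 3 or 4 of 10 weeks were left out, and 0.0939, 0.0881, 0.0601 and 0.0830 when control hearts 1, 2, 3 or 4 of 10 weeks were. Without Acsl1H-/- 10 weeks replicate 1 it was 0.00659, the lowest of the 15 fits, and the log2 difference ranged from 0.74 to 1.03. Fitted on hearts of 10 weeks only, neither gene was called, with adjusted p = 0.123 for Ada and 0.0720 for Slc29a2. With the most variable probe standing for each gene the values were 0.0518 for Ada and 0.0624 for Slc29a2, and Slc29a2 also missed the threshold with robust moderation (0.0521), with arrays scaled to 1 spread (0.0603) and among single probes (0.0558).

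Adk, the kinase that competes with Ada for adenosine inside the cell, was not called at either time. It stood at 0.08, 0.06, 0.00 and 0.14 in Acsl1H-/- hearts of 10 weeks and at 0.08, -0.01, -0.02 and 0.00 in flox hearts. At 2 weeks it stood at 0.02, -0.02 and -0.26 in Acsl1H-/- hearts, against -0.09, -0.08, -0.02 and 0.24 in flox hearts. The groups overlapped at both times. The log2 difference was 0.06 ± 0.10 at 10 weeks (limma, adjusted p = 0.923, 95% interval -0.15 to 0.26) and -0.10 ± 0.10 at 2 weeks (adjusted p = 0.855), the narrowest intervals of the 6 genes.

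CD73 gave 2 answers from its 2 probes. Probe A_52_P574668 of Nt5e stood at -1.15, -1.33, -1.13 and -1.13 in Acsl1H-/- hearts of 10 weeks, against -0.43, 1.03, -0.01 and 0.87 in flox hearts of 10 weeks. The 4 knockouts formed a tight group below every control, while the controls themselves spread widely. Probe A_51_P156740 stood at 0.08, 0.09, 0.31 and -0.08 in Acsl1H-/- hearts of 10 weeks and at -0.02, 0.00, 0.25 and -0.03 in flox hearts, with the groups overlapping. The log2 difference was -1.55 ± 0.39 for the first probe (limma over 32664 probes, adjusted p = 0.112) and 0.05 ± 0.27 for the second (adjusted p = 0.981). Of all single probes 0.634% were called at 10 weeks and 6.24% had groups that did not overlap. At 2 weeks neither probe was called or parted the groups, where 0.0153% of single probes were called and 8.85% parted them. Over the 15 arrays the pair correlated at r = 0.24, and which of them reports Nt5e was not tested.

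**Figure D2:**
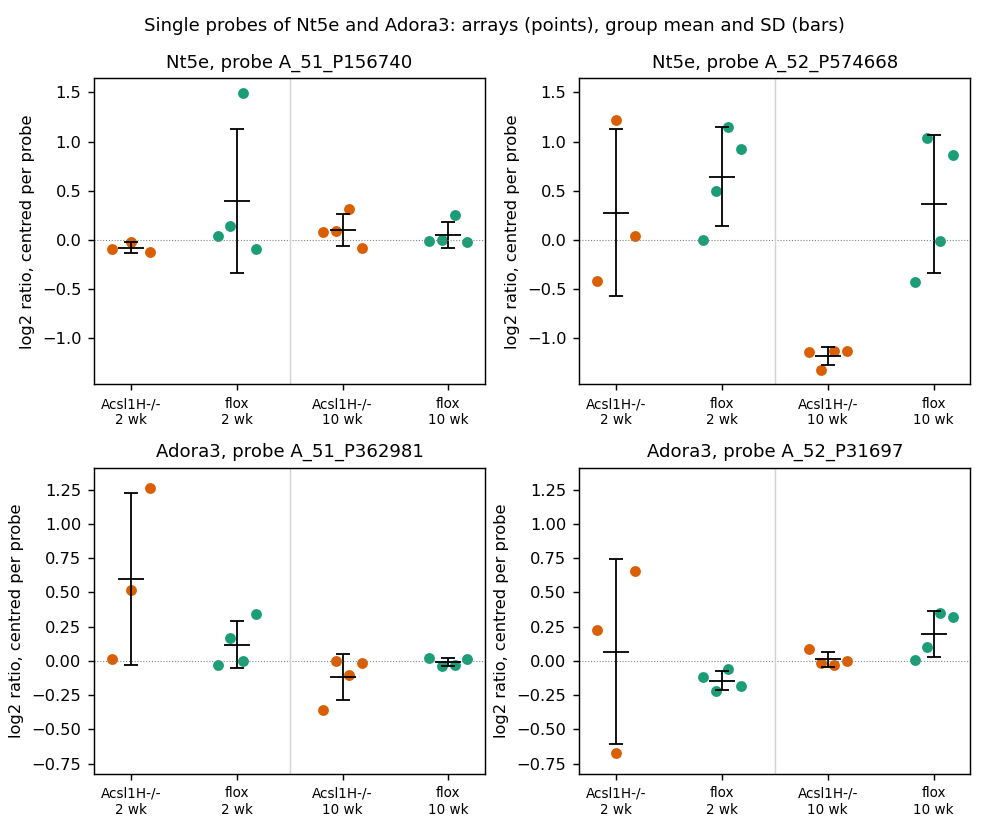
Centred log2 ratio of the single probes of Nt5e (top) and Adora3 (bottom) on each array (points) with the group mean and standard deviation (bars), on 1 scale per gene. For Nt5e the 10-week groups part on probe A_52_P574668, where the Acsl1H-/- arrays lie between -1.33 and -1.13, and overlap on probe A_51_P156740.

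Averaged over the pair, Nt5e differed by -0.75 ± 0.26 at 10 weeks (limma, adjusted p = 0.300) and by -0.42 ± 0.28 at 2 weeks (adjusted p = 0.787). At 2 weeks the mean stood at -0.26, 0.60 and -0.05 in Acsl1H-/- hearts, against 0.02, 0.31, 1.32 and 0.42 in flox hearts, and the groups overlapped. Flox control 2 weeks replicate 3, the array lowest for Slc29a2 at that time, was the highest of all 15 for Nt5e. Without it the 2-week difference was -0.15, and over the fits that left out an array it ran from -0.67 to -0.15. CD73 is known on fibroblasts and endothelial cells. At 10 weeks markers of fibroblasts differed in the direction opposite to the mean of Nt5e and to its probe A_52_P574668. Its probe A_51_P156740 differed by 0.05 there. The mean of 10 fibroblast markers ran from -0.04 to 0.35 in Acsl1H-/- hearts and from -0.50 to -0.13 in flox hearts of 10 weeks, with 10 of 10 above 0 in the difference and none called. The mean of 10 endothelial markers ran from -0.04 to 0.06 and from -0.10 to 0.08 in the same order, with 6 of 10 above 0 and none called. Their part in the values of Nt5e was not tested. In whole ventricle RNA, fewer cells of a type and less RNA per cell cannot be told apart.

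Of the receptors Adora3 was analysed, the A3 receptor, which couples to inhibitory G proteins and is known on mast cells in mouse. In RefSeq it overlaps the gene Tmigd3, so which transcript its probes report is uncertain. The mean of its 2 probes stood at -0.14, -0.01, -0.07 and -0.01 in Acsl1H-/- hearts of 10 weeks, against 0.01, 0.03, 0.16 and 0.17 in flox hearts. The groups did not overlap on that mean, but did on each probe alone, and the log2 difference was -0.15 ± 0.17 (limma, adjusted p = 0.865). At 2 weeks it stood at 0.12, -0.08 and 0.96 in Acsl1H-/- hearts and at -0.07, -0.03, -0.03 and 0.08 in flox hearts. The 1 high value, in Acsl1H-/- 2 weeks replicate 3, carried most of the difference of 0.35 ± 0.18 (adjusted p = 0.743), which was 0.03 without that array. The mean of 8 mast cell markers ran from -0.36 to -0.02 in Acsl1H-/- hearts and from -0.15 to 0.52 in flox hearts of 2 weeks, with 1 of 8 above 0 in the difference and none called. The highest of these, 0.52, was flox control 2 weeks replicate 1. At 10 weeks the mean ran from -0.04 to 0.44 in Acsl1H-/- hearts and from -0.36 to 0.22 in flox hearts. There 6 of 8 lay above 0 in the difference and none was called. The part of mast cells in the values of Adora3 was not tested.

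At 10 weeks 4 of the 6 genes had groups that did not overlap, where 6.6% of all genes did so (3.24% higher, 3.36% lower). Ada was higher, and Slc29a2, Nt5e and Adora3 were lower. Adora3 overlapped on each probe alone, and Nt5e on probe A_51_P156740. The genes had been picked with this contrast known, so the count is a description. At 2 weeks 0 of the 6 did, against 8.78% of all genes (4.26% higher, 4.52% lower).

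**Figure D3:**
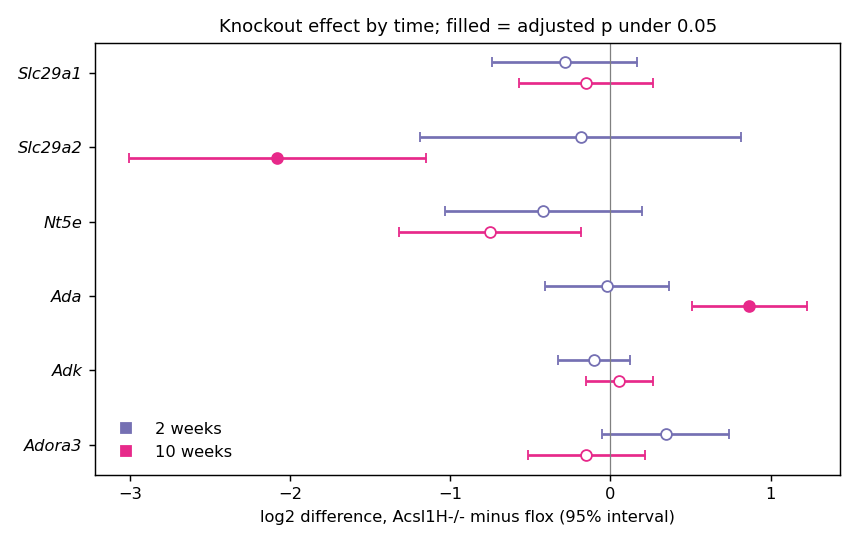
Log2 difference, Acsl1H-/- minus flox controls, with its 95% interval from limma for each measured gene at 2 weeks (purple) and 10 weeks (pink). Filled points passed at an adjusted p under 0.05 over all genes: Slc29a2 at -2.08 and Ada at 0.87, both at 10 weeks.

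Time within a genotype was the next comparison. In Acsl1H-/- hearts, 10 weeks minus 2 weeks, no gene of the system passed, where 0.389% of all genes did (0.23% higher, 0.159% lower). Ada differed by 0.91 ± 0.18 (limma, adjusted p = 0.0535) and Slc29a2 by -1.28 ± 0.46 (adjusted p = 0.319). Nt5e differed by -0.64 ± 0.28 (adjusted p = 0.423). For these 3 of 6 genes the knockout groups did not overlap, as for 13.4% of all genes (5.78% higher, 7.66% lower). This contrast uses the same Acsl1H-/- arrays of 10 weeks as the comparison with controls. Ada passed when control heart 3 of 2 weeks was left out (adjusted p = 0.0443) and when knockout heart 1 of 10 weeks was (adjusted p = 0.0119). In flox hearts no gene of the system had groups that did not overlap, against 2.72% of all genes (0.916% higher, 1.8% lower). The 6 differences there ran from -0.31 for Nt5e to 0.61 for Slc29a2 (adjusted p = 1.00 for each), and limma called 0% of all genes, with 815 at an unadjusted p under 0.05.

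The knockout effect at 10 weeks minus that at 2 weeks was -1.89 ± 0.63 for Slc29a2 (limma, adjusted p = 0.591), -0.50 ± 0.25 for Adora3 (adjusted p = 0.752), -0.33 ± 0.39 for Nt5e (adjusted p = 0.855), 0.16 ± 0.14 for Adk (adjusted p = 0.825) and 0.14 ± 0.28 for Slc29a1 (adjusted p = 0.924). So neither Slc29a2 nor Ada, called at 10 weeks only, was shown to differ between the times over all genes. Of all 19532 genes, 1331 had an unadjusted p under 0.05 for this difference and 0 were called.

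Ada and Slc29a2 were next set beside each other. Over the 15 arrays their values correlated at r = -0.83, and at r = -0.63 after the mean of each group was subtracted. These points share arrays and groups, so both values are descriptions. The arrays that lay far from their group means in opposite directions for the 2 genes were flox control 2 weeks replicate 3 (Ada 0.25, Slc29a2 -1.39) and Acsl1H-/- 10 weeks replicate 1 (Ada 0.34, Slc29a2 -0.57). In flox hearts of 10 weeks the genes did not run opposite, since replicates 1 and 2 were lower than replicates 3 and 4 for both. The genes whose pattern was most like that of Ada (Pearson r over the 15 arrays) were Def8 (0.92), Chchd6 (0.91), Nars (0.91), Chgb (0.91) and the ferritin pseudogene Ftl2-ps (0.91), with 0.55 to 0.69 after group means were subtracted. As Ada was high in Acsl1H-/- hearts of 10 weeks, and Slc29a2 low, a difference at 10 weeks is built into the choice of these genes, and their calls are given as a description. The choice also drew on the spread within groups. For both sets of genes, r after group means were subtracted is therefore a description too. Of these Chchd6, a protein of mitochondrial cristae, Chgb, a granin of secretory vesicles, and Ftl2-ps were called at 10 weeks, at 0.63 ± 0.12 (limma, adjusted p = 0.0278), 0.85 ± 0.14 (adjusted p = 0.0162) and 0.88 ± 0.11 (adjusted p = 0.00313). Whether the Ftl2-ps probe also reports its ferritin parent was not tested. The genes most like Slc29a2 were Zfp612 (0.89), Ctdnep1 (0.89), Adamtsl4 (0.89), Trmt5 (0.88) and Speg, a kinase of striated muscle (0.87), with 0.61 to 0.86 after group means were subtracted. Of these Trmt5, a tRNA methyltransferase, was called at 10 weeks, at -0.64 ± 0.11 (adjusted p = 0.0150). Ftl2-ps alone of these 4 called genes passed in all 15 fits that left out an array. Chchd6 did not pass when knockout hearts 2 or 4 of 10 weeks (adjusted p of 0.0702 and 0.0786) or control hearts 1, 2 or 4 of 10 weeks (0.0710, 0.0642 and 0.0830) were left out, nor with the most variable probe (0.0518) or the replicate block (0.0502). Chgb did not pass without knockout heart 4 (0.0617) or control hearts 1 or 4 of 10 weeks (0.0542 and 0.0604), nor Trmt5 without knockout hearts 2 or 4 (0.0552 and 0.0534) or control heart 1 of 10 weeks (0.0514). Conversely, Def8 passed without knockout heart 1 of 10 weeks (0.0365) and Zfp612 without control heart 3 of 2 weeks (0.00756). Fitted on hearts of 10 weeks only, none of the 4 passed (0.129 for Chchd6, 0.0828 for Chgb and Trmt5, 0.0613 for Ftl2-ps), while Zfp612 did (0.0448).

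Around the 6 genes, 7 lists of the wider purine and adenosine pathway named 128 genes, of which 116 were measured. At 10 weeks 2 rose, 1 fell and 113 did not pass, and the median log2 difference was 0.02, beside -0.02 over all genes. Over all genes 0.358% were called higher and 0.328% lower. Groups did not overlap for 5 of the 116 that were higher and 8 that were lower, beside 3.24% and 3.36% of all genes. At 2 weeks none passed, the smallest adjusted p was 0.363, and the median was 0.00. There 6 were higher and 5 lower without overlap, beside 4.26% and 4.52% of all genes. The lists too were chosen with earlier results known, so the separations named below are a description.

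Both genes that rose belong to the list of purine and pyrimidine nucleoside salvage and breakdown, with 20 measured genes and a median of 0.06. Adssl1, the muscle adenylosuccinate synthase that turns IMP back towards AMP, stood at 0.82, 0.88, 0.98 and 0.84 in Acsl1H-/- hearts of 10 weeks, against 0.00, -0.13, -0.14 and 0.05 in flox hearts. The groups lay far apart beside their spread, with a log2 difference of 0.93 ± 0.09 (limma, adjusted p = 3.55e-04). At 2 weeks the difference was 0.21 ± 0.09 (adjusted p = 0.680), again with all 3 knockouts above all 4 controls. Uck2, a uridine-cytidine kinase, stood at 0.66, 0.76, 0.59 and 0.51 in Acsl1H-/- hearts of 10 weeks, against -0.12, 0.03, -0.21 and -0.16 in flox hearts. It rose by 0.74 ± 0.11 (adjusted p = 0.00598), and its 2 probes gave 0.74 and 0.75. Neither call ended when an array was left out, with adjusted p up to 0.00244 for Adssl1 and 0.0266 for Uck2. Uck2 missed the threshold with its most variable probe alone (adjusted p = 0.0545). At 2 weeks it stood at 0.009, 0.002 and 0.349 in Acsl1H-/- hearts, against -0.099, 0.000, -0.024 and -0.260 in flox hearts. The groups just failed to overlap there. Its 2 probes were unalike at that time, at 0.05 and 0.39 (limma over single probes, adjusted p = 0.968 and 0.492). The other 18 genes of the list did not pass.

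Among 35 measured genes that act below adenosine receptors, 1 fell at 10 weeks, where 0.328% of all genes were called lower. Of the list 15 lay above 0 and 20 below, with a median of -0.04. Adenylyl cyclases 5 and 6, which make cAMP in cardiomyocytes, are held back by the A1 and A3 receptors through inhibitory G proteins. Adcy6 stood at -0.79, -0.76, -0.73 and -0.95 in Acsl1H-/- hearts, against 0.00, 0.08, -0.16 and -0.45 in flox hearts. It fell by 0.67 ± 0.13 on the log2 scale (limma, adjusted p = 0.0355), and its log2 difference at 2 weeks was -0.02 ± 0.14 (adjusted p = 0.984). The call ended in 9 of 15 fits that left out an array, with adjusted p of 0.0508 without knockout heart 2 of 2 weeks and 0.0512 without control heart 4 of 2 weeks. Leaving out knockout hearts 1, 2, 3 or 4 of 10 weeks gave 0.0885, 0.0814, 0.0670 and 0.109, and leaving out control hearts 1, 2 or 3 of 10 weeks gave 0.109, 0.104 and 0.0780. It also ended after quantile normalisation (0.111), with arrays scaled (0.0921), with the most variable probe (0.0608) and on hearts of 10 weeks only (0.109). Adcy5 differed by -1.23 ± 0.28 (adjusted p = 0.0702). The 4 knockouts lay below every control, and it passed when control heart 1 of 10 weeks was left out (adjusted p = 0.0471). Its 2 probes gave -0.94 (adjusted p = 0.0457 over single probes) and -1.53 (adjusted p = 0.397). Rgs2, which dampens G protein signals, differed by -0.54 ± 0.20 (adjusted p = 0.328), and its groups did not overlap.

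**Figure D4:**
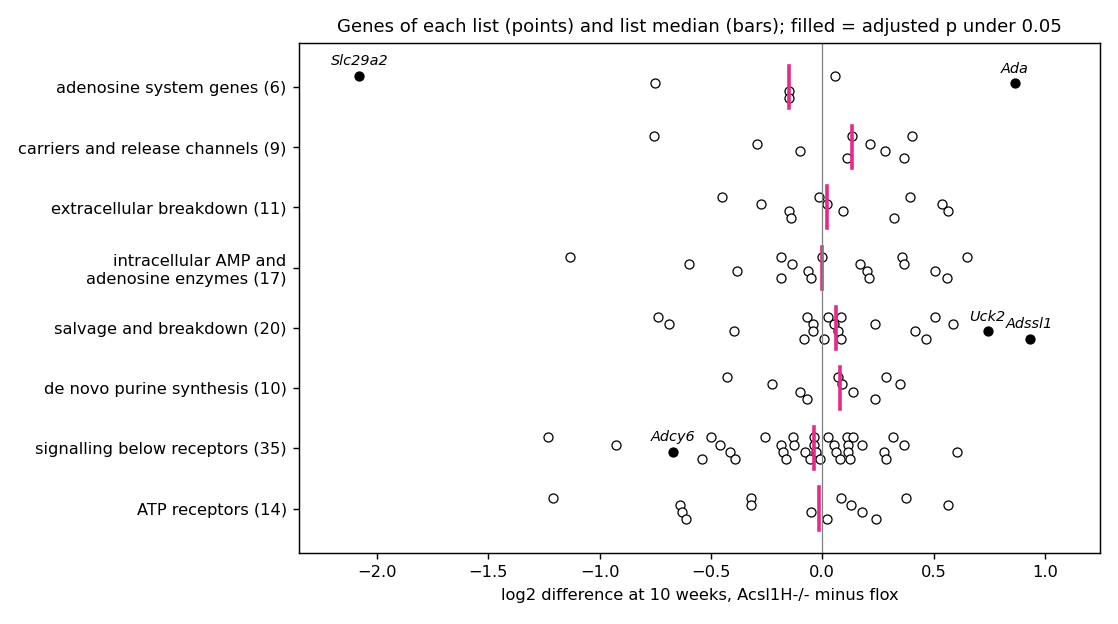
Log2 difference at 10 weeks, Acsl1H-/- minus flox controls, of the 6 adenosine system genes and of each gene (points) in the 7 pathway lists, with the number of genes in brackets and the list median as a bar. Filled points passed at an adjusted p under 0.05: Slc29a2 and Adcy6 to the left of 0, and Ada, Uck2 and Adssl1 to the right.

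No other list held a called gene at either time. Among 9 other carriers and release channels (median 0.13) the ATP release channel Panx1 differed by 0.40 ± 0.13 (limma, adjusted p = 0.236) and the cyclic nucleotide exporter Abcc5 by -0.75 ± 0.23 (adjusted p = 0.210), both with groups that did not overlap at 10 weeks. The 2 probes of Panx1 were unalike, at 0.85 and -0.04. Of the 3 probes of Abcc5, those at -1.20 and -1.27 lay close together and the other was at 0.21. The lysosomal transporter ENT3, Slc29a3, differed by 0.11 ± 0.17 at 10 weeks (adjusted p = 0.913, probes at -0.15 and 0.37) and by -0.41 ± 0.18 at 2 weeks (adjusted p = 0.675).

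Among 11 genes of extracellular breakdown (median 0.02), Entpd2, an ectonucleotidase that splits ATP, had the smallest p at 2 weeks. It stood at 0.49, 0.42 and 0.77 in Acsl1H-/- hearts of 2 weeks, against 0.15, -0.14, -0.76 and -0.43 in flox hearts. All 3 knockouts lay above all 4 controls, as all 4 did at 10 weeks, but the log2 difference did not pass at 2 weeks (0.86 ± 0.20, limma, adjusted p = 0.363) or at 10 weeks (0.56 ± 0.18, adjusted p = 0.246). The fibroblast marker mean was also higher at 2 weeks, from 0.16 to 0.83 in Acsl1H-/- hearts and from -0.24 to 0.24 in flox hearts, and its part in Entpd2 was not tested. Alkaline phosphatase, Alpl, which can also release adenosine from AMP, differed by 0.54 ± 0.16 at 10 weeks (adjusted p = 0.188) and by 0.39 ± 0.17 at 2 weeks (adjusted p = 0.659). Its groups did not overlap at 10 weeks.

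Among 17 intracellular enzymes of AMP and adenosine (median 0.00) the nucleotidases gave differences of both signs at 10 weeks. The cytosolic pyrimidine nucleotidase Nt5c3 differed by -0.38 ± 0.11 (limma, adjusted p = 0.164) and the mitochondrial Nt5m by 0.56 ± 0.18 (adjusted p = 0.241). The groups of Nt5c3 did not overlap there, and those of Nt5m did. Ampd2, an AMP deaminase, differed by 0.70 ± 0.20 at 2 weeks (adjusted p = 0.489) and by 0.37 ± 0.19 at 10 weeks (adjusted p = 0.572). Its groups did not overlap at 2 weeks. In de novo purine synthesis, 10 genes with a median of 0.08, Impdh1 differed by 0.35 ± 0.13 at 10 weeks (adjusted p = 0.350). Prps2, which makes the sugar phosphate that purines are built on, differed by -1.12 ± 0.30 at 2 weeks (adjusted p = 0.441), where its groups did not overlap, and by 0.29 ± 0.28 at 10 weeks (adjusted p = 0.823). Of the 14 ATP receptors (median -0.01) the ADP receptor P2ry1 had the smallest p at 10 weeks, at -0.64 ± 0.18 (adjusted p = 0.175), and there its groups did not overlap. A further 15 genes of the lists, picked for their small p-values, ran from -1.21 to 0.59 at 10 weeks (smallest adjusted p = 0.266) and from -1.20 to 0.59 at 2 weeks (smallest adjusted p = 0.646).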

How the data were processed

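The authors' deposited table, 41267 probes on 15 arrays of 2 colours, was read as log2 ratios against the reference RNA, per the labels' dyes. Neither log base nor direction is stated. Scan software, background correction and scaling: not given in the sources used here. No value was missing. Array medians ran from -0.02 to 0.03 and standard deviations from 0.457 to 0.565. Of the probes 32664 carried 1 gene symbol in the platform annotation, 45 several and 8465 mouse probes none, and 93 were control spots. A gene was the mean of its probes.

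Group means were fitted on all 15 arrays with limma 3.58.1 in R 4.3.3 (lmFit, eBayes, 11 residual degrees of freedom), two-sided, with Benjamini-Hochberg adjustment over 19532 genes and a call at an adjusted p under 0.05. Single probes were fitted likewise. The fit was tested on simulated data. The members and lists were chosen with earlier results of these data known. All members were named. For pathway genes the rule took those called and, per list, those with the smallest p at each time, 31 in all, of which 16, chosen after their values were seen, are described singly. For the 2 members with the smallest p, the 5 genes of highest Pearson r were named. Promoter windows came from RefSeq, with 8 of 9 members matched. Whether replicate numbers pair the hearts was not settled. After group means were subtracted, same-numbered arrays of a time correlated between -0.03 and 0.06. At 10 weeks they ran from -0.01 to 0.06, and differently numbered arrays from -0.06 to 0.02. Correlations this small cannot decide it. Alternatives covered scaling, probe choice, arrays entered, moderation, array weights, a replicate block and leaving out arrays.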

Additional observations from a re-analysis of the deposited data

Results flagged for a closer look

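In 30 sets of 4 arrays, each a measured gene or a probe of Nt5e or Adora3 in 1 group, an array stood apart from the others 5 times by Dixon's test, where chance gives about 1 in 20. The largest such value was 1.49 for Nt5e probe A_51_P156740 on flox control 2 weeks replicate 3, against -0.09 to 0.14 on the other arrays of that group. The same probe stood at 0.25 on flox control 10 weeks replicate 3, against -0.03 to 0.00. Nt5e probe A_52_P574668 stood at -1.33 on Acsl1H-/- 10 weeks replicate 2, against -1.15 to -1.13, a gap that is small beside the distance to the controls. Slc29a1 stood at 0.13 on Acsl1H-/- 10 weeks replicate 3, against -0.27 to -0.20, and Adk at 0.084 on flox control 10 weeks replicate 1, against -0.02 to 0.00.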

How the results depend on the processing

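Of the adenosine system genes called at 10 weeks, 2 in all, 1 was called after arrays were centred and scaled, with robust moderation, or with single probes tested (an alternative chosen after seeing the data), and 0 with the most variable probe or when hearts of 10 weeks were fitted on their own; without 1 array the number ran from 0 to 2. For time in knockouts 1 was called with the median of probes or with the replicate block, and 0 to 1 without an array. Pathway genes called at 10 weeks were 1 with the most variable probe, and 2 to 3 without an array. The causes were not tested. Whether the replicate numbers pair the hearts was not settled. With the replicate block in limma, 2 adenosine system genes and 2 pathway genes stayed called at 10 weeks, and Adcy6 was lost (adjusted p = 0.0733). With that block 71 genes were called in place of 134. That number was 50 on hearts of 10 weeks only, 89 with the most variable probe, and 61 to 142 without an array; for time in knockouts 31 were called with the block in place of 76, 12 on knockout hearts only, 47 after quantile normalisation, 145 with single probes, and 41 to 89 without an array.

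Signs turned for some differences, none of which had been called. Ada at 2 weeks was 0.045 after quantile normalisation and 0.012 with array weights. Adora3 over time in controls was -0.13 with the most variable probe, and Adcy6 at 2 weeks was 0.0031 after quantile normalisation. Adcy5 at 2 weeks was -0.29 on a single probe, and Abcc5 at 2 weeks was -0.00359 with the median of probes. Without an array, differences at 2 weeks ran from -0.63 to 0.13 for Slc29a2, -0.094 to 0.079 for Ada, -0.11 to 0.051 for Adcy6, -0.11 to 0.21 for Adcy5, -0.13 to 0.0075 for Impdh1 and -0.17 to 0.052 for P2ry1. Slc29a3 at 10 weeks ran from -0.019 to 0.21. Slc29a1 ran from -0.11 to 0.29 for the difference between effects and -0.22 to 0.18 for time in knockouts. Over time in controls, Ada ran from -0.054 to 0.12 and Adk from -0.033 to 0.076. Of the single-gene values under the 9 alternatives beside leaving out an array, 611 kept direction and side of the threshold, 19 lost and 6 gained a call, and 6 turned sign.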
